A study of Rattus norvegicus with 20 samples.

Results

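Col1a1, Dcn, Reln, Gfap, Tgfbr1 and Smad2 are genes of the liver's stellate cells, of the matrix these cells lay down and of the TGF-beta pathway that drives it. They were picked by name, 6 of the 14356 genes named in the authors' peak lists for NF-kB p65, and each had 1 listed transcription start. Each start lay in 1 of the 14540 tiled promoters that could be measured on the arrays. Between 50 and 54 probes covered each of the 6 promoters, all within 5 kb of the start, from at most 4280 bp before it to at most 1070 bp after it.

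Wild-type male Sprague Dawley rats of 8 to 10 weeks were kept for 5 weeks on liquid food that gave 36% of calories as ethanol (ethanol-fed), or were pair-fed the same calories with carbohydrate instead (carbohydrate-fed). All rats had a 70% partial hepatectomy, after which the remnant liver regrows. The removed lobes were the 0h samples and the remnant lobes the 1h and 6h samples, so 0h differs from both later times in lobe as well as in time. Chromatin of the whole tissue was precipitated with an antibody to p65, the NF-kB subunit that activates transcription, and hybridised to promoter tiling arrays (ChIP-chip), 1 array per sample. There were 3 ethanol and 3 carbohydrate arrays at 0h, 3 and 3 at 1h, and 4 and 4 at 6h. The series title speaks of a change in NF-kB binding over the genome's promoters after chronic ethanol.

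Stellate cells lie between hepatocytes and sinusoids, store retinoids and, after injury, turn into the main makers of fibrillar collagen. TGF-beta binds a receptor pair, of which TGFBR1 is the signalling kinase. The kinase phosphorylates SMAD2 and SMAD3, which enter the nucleus and switch on matrix genes, while decorin, in the matrix, can bind and restrain the ligand. NF-kB is known in these cells as a survival and inflammatory factor that is raised by TNF and by Toll-like receptor ligands. The assay measured DNA bound with p65 and not RNA, so markers cannot be used to check which cells were in the tissue. In whole liver, fewer cells with p65 at a promoter and less p65 per cell cannot be told apart.

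Promoter signal is here the mean log2 ratio, p65-bound over reference DNA, of the probes in 1 window of at most 500 bp per promoter. The sign of the deposited ratios was turned, because the authors' own peaks lay at negative values, and 0 is the median probe of the array. The sources used here state neither the log base, taken as 2, nor the sign nor the genome build. The reference is input DNA in one label and IgG-precipitated DNA in another. The windows, the 500 bp with the highest mean over all 20 arrays, lay upstream of the start for the 3 matrix genes and downstream for the other 3. In the files' coordinates they were chr10:83621568-83621958 for Col1a1 (−869 to −479 bp from the start), chr7:35000266-35000666 for Dcn (−3967 to −3567 bp) and chr4:8147695-8148095 for Reln (−3177 to −2777 bp). For Gfap, which runs on the minus strand, the window was chr10:92067595-92067987 (568 to 960 bp), for Tgfbr1 chr5:63977618-63977914 (751 to 1047 bp) and for Smad2 chr18:73180997-73181492 (478 to 973 bp). No exon annotation of this build was at hand, so only the distance from the start is given. The windows were chosen on the same arrays that were then tested, so the arrays of a single time could decide a window's place. The SEs and adjusted p-values at these windows do not allow for this choice.

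Array identifiers put the 20 arrays in 4 sets, here A to D, on 11 slides. Numbers that came with the arrays, taken as animal numbers, give 16 animals, of which 4 have arrays at 2 times, and no animal has 2 arrays in a group. Set A held 5 of the 6 arrays of 0h and no other time, and set C held 11 of the 14 later arrays. Set B was 1 slide with ethanol 0h replicate 2 and replicate 1 of both diets at 1h, and set D was carbohydrate 6h replicate 1. Arrays of different groups correlated across probes at a mean r of 0.42 within a set and 0.22 between sets. On the same slide their mean r was 0.55, against 0.45 for arrays of the same group. Any comparison of carbohydrate-fed rats with 0h is therefore also a comparison of sets, and the 2 cannot be told apart. The same holds for 6h against 0h in ethanol-fed rats. Between 0h and 1h in ethanol-fed rats only set B held both times. Comparisons of 6h with 1h lie mostly within set C. Most 6h arrays, however, lay on slides without a 1h array, so time and slide largely go together there.

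The stretch around the start is shown for the members listed in RefSeq's promoter table (assembly GRCr8, from 250 bases before the start to 50 after it), because the share of promoters that changed with time varied with the CG pairs in this stretch. Capitals mark the NF-kB consensus and the GC box GGGCGG, searched on both strands. Tgfbr1 is chr5:66449148-66449447 (plus strand), Smad2 chr18:72125094-72125393 (plus strand, the first of its 2 listed starts), Gfap chr10:88361612-88361911 (minus strand) and Reln chr4:13628318-13628617 (plus strand).
Tgfbr1: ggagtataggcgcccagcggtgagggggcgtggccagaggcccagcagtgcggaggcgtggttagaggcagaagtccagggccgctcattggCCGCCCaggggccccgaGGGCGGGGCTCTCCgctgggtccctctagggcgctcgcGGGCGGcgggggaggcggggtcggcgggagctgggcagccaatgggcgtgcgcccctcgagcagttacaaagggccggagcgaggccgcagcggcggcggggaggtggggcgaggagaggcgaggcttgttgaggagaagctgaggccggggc
Smad2: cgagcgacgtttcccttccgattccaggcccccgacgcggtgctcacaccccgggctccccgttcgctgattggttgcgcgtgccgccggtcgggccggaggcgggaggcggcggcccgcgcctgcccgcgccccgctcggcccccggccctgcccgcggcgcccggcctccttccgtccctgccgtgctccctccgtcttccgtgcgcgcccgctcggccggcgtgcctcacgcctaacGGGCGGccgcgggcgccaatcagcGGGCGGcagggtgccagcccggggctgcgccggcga
Gfap: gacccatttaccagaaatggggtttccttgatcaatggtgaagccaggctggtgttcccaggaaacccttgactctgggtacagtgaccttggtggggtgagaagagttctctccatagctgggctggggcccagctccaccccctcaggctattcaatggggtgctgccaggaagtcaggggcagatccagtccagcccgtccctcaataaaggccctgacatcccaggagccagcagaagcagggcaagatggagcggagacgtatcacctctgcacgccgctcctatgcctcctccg
Reln: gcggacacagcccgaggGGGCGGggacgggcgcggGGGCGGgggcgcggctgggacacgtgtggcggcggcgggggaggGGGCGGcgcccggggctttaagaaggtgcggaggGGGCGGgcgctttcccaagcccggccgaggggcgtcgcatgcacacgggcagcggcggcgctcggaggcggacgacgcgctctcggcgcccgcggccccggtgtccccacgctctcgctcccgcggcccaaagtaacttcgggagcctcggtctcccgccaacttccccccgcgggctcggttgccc
Of these 4 only Tgfbr1 held the NF-kB consensus, which 7.51% of the 33469 listed promoters hold. The match, at −137 bp, overlapped a GC box. Reln had 4 GC boxes, Tgfbr1 had 3, Smad2 had 2 and Gfap had none, and 33.1% of promoters hold at least 1. Either GGGAA or GGGGA, short cores of NF-kB sites, occurred in all 4, though Tgfbr1 lacked GGGAA and Gfap lacked GGGGA. Taken singly, these cores are found in 62.3% and 60.7% of promoters, and the share with either was not counted. CG pairs numbered 52 in Smad2, 47 in Reln, 30 in Tgfbr1 and 6 in Gfap, against a median of 7. These stretches do not overlap the measured windows, as judged by distance from the start, and a match is a description, not a site.

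From 1h to 6h after hepatectomy, p65 signal in the measured window changed at 4 of the 6 genes. It rose at Dcn and Col1a1 in both diets and at Reln in carbohydrate-fed rats, and fell at Tgfbr1 in both diets. In ethanol-fed rats 2 members rose and 1 fell, where 7.83% of all promoters rose and 16.2% fell. In carbohydrate-fed rats 3 rose and 1 fell, where 17.0% of all promoters rose and 6.92% fell. With the sign as deposited, the window at the listed start, the mean of the whole tiled promoter or the slide as a term, at most 1 member passed in either diet. The measured windows were chosen on the tested arrays themselves, and the calls made at them do not allow for that choice. The median difference over the 6 was 0.04 in ethanol-fed and 0.16 in carbohydrate-fed rats, against −0.08 and 0.07 over all promoters.

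**Figure D1:**
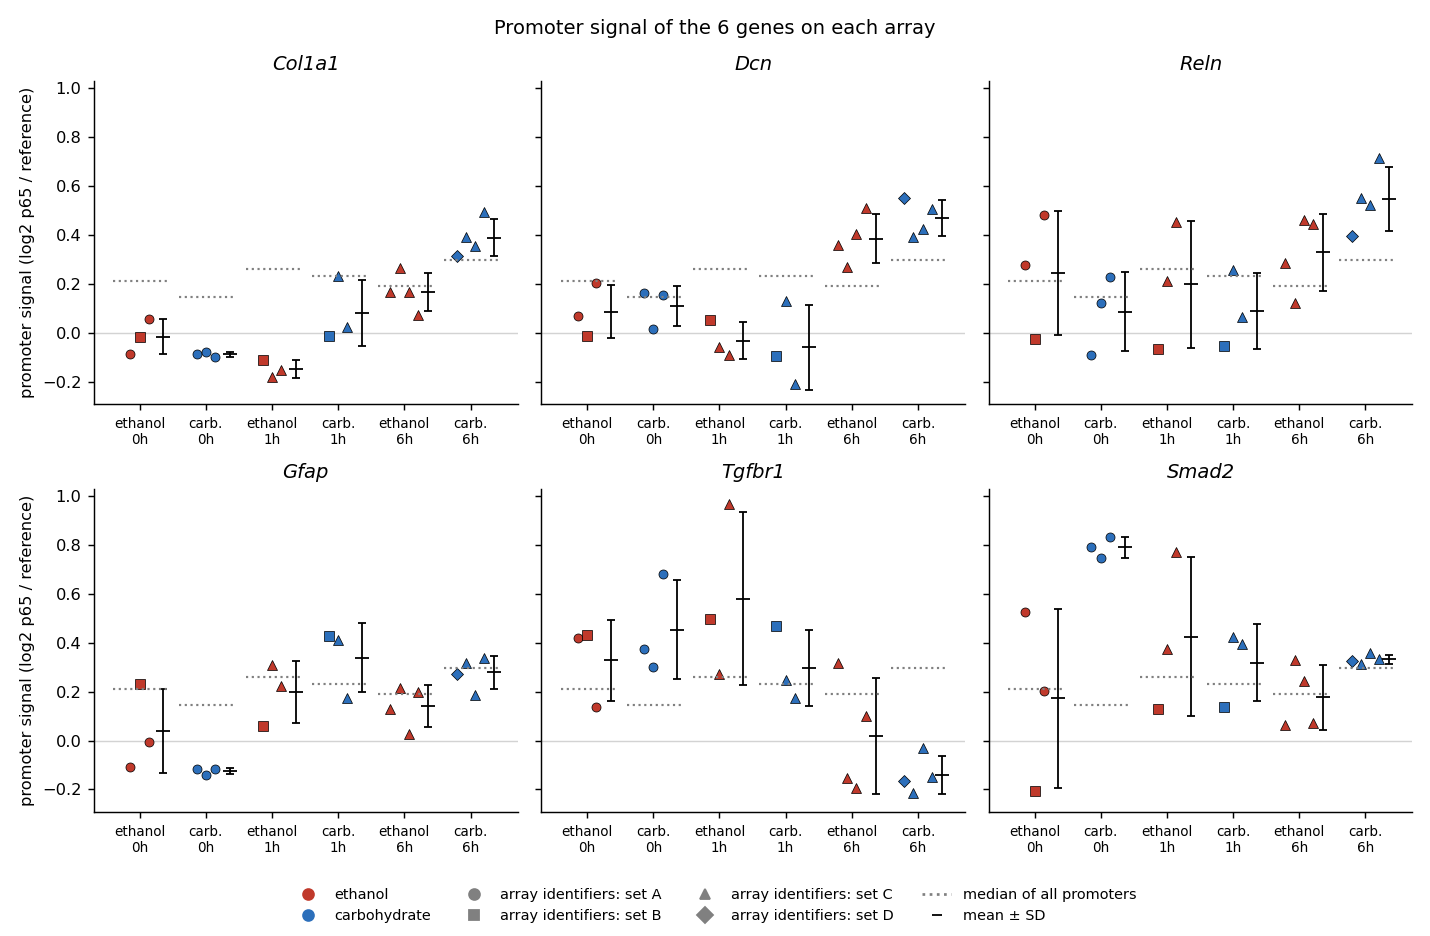
Promoter signal (log2 p65 over reference) of each gene on each of the 20 arrays, by diet and time, with the mean and SD of each group and, dotted, the median of all promoters in that group. Marker shape gives the set. Dcn at 6h lies above all its 0h and 1h arrays, and Tgfbr1 of carbohydrate-fed rats lies below 0 at 6h.

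Dcn, which codes for decorin, the small proteoglycan that coats collagen fibrils and binds TGF-beta, had the clearest change. Its signal on the ethanol arrays was 0.36, 0.27, 0.40 and 0.51 at 6h, against 0.05, −0.06 and −0.09 at 1h. On the carbohydrate arrays it was 0.55, 0.39, 0.43 and 0.50 at 6h, against −0.10, 0.13 and −0.21 at 1h. In both diets every 6h array lay above every 1h array, and above every 0h array as well, which read 0.07, −0.01 and 0.20 in ethanol-fed and 0.16, 0.02 and 0.15 in carbohydrate-fed rats. The difference between 6h and 1h was 0.42 ± 0.11 (SE, adjusted p = 0.0067, limma) in ethanol-fed and 0.53 ± 0.11 (adjusted p = 0.00119) in carbohydrate-fed rats. By group mean the order was carbohydrate 6h (0.47 ± 0.07), ethanol 6h (0.38 ± 0.10), carbohydrate 0h (0.11 ± 0.08), ethanol 0h (0.09 ± 0.11), ethanol 1h (−0.03 ± 0.08) and carbohydrate 1h (−0.06 ± 0.17), as mean ± SD. In that order only ethanol 6h and carbohydrate 0h differed by more than the SDs of both neighbours together.

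Within set C alone the change of Dcn was 0.46 ± 0.12 in ethanol-fed and 0.48 ± 0.13 in carbohydrate-fed rats (adjusted p = 0.00322 and 0.00551), and no left-out array ended either call. Slides that held both times gave 0.45 between ethanol 6h replicate 1 and ethanol 1h replicate 3, and 0.26 between the second carbohydrate replicates of 6h and 1h. With the slide as a term the carbohydrate call was lost (0.41, adjusted p = 0.0739). The authors listed Dcn peaks between −4177 and −3015 bp on all 4 ethanol and 2 of 4 carbohydrate arrays of 6h, and on none of 0h or 1h. Their scores ran from 0.336 to 0.549 and their FDRs from 0.00774 to 0.197. Only the peaks on replicate 4 of each diet had an FDR under 0.05. Other Dcn peaks lay at −634 to −179 bp on replicate 3 of both diets at 0h, at −1444 to −888 bp on carbohydrate 0h replicate 3, and at 155 to 706 bp on ethanol 6h replicate 3. The mean of the whole tiled promoter also rose in ethanol-fed rats, by 0.28 (adjusted p = 0.00285), while in carbohydrate-fed rats it differed by 0.12 (adjusted p = 0.158).

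In 500 bp bins the Dcn change in ethanol-fed rats was 0.42 between −4000 and −3500 bp, 0.37 between 500 and 1000 bp and −0.05 between −1500 and −1000 bp. In carbohydrate-fed rats the same bins read 0.53, 0.48 and −0.35, so the change varied more along the promoter. Over all promoters the mean change stayed between −0.07 and 0.05 in every bin and diet, with an SD across promoters of up to 0.30.

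**Figure D2:**
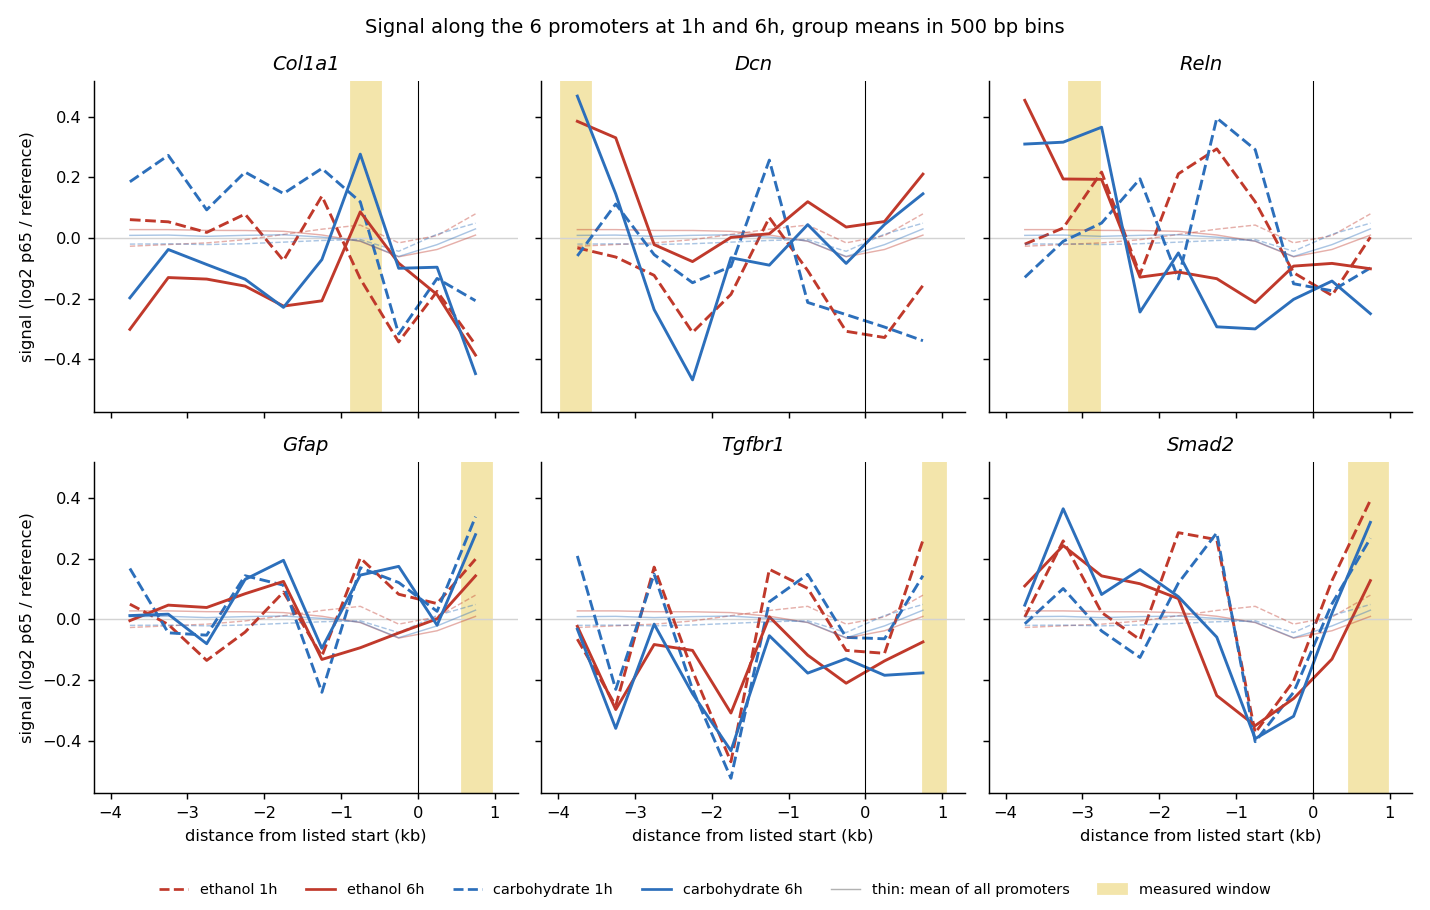
Mean signal (log2 p65 over reference) by distance from the listed start in 500 bp bins, at 6h (solid) and 1h (dashed) in ethanol-fed and carbohydrate-fed rats, with the mean of all promoters as thin lines and the measured window shaded. Signal of Dcn and Reln was higher at 6h at the far upstream end, and that of Reln was lower at 6h around −1000 bp.

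Col1a1 codes for the main chain of type I collagen, the fibre of liver scar. Its signal was 0.16, 0.26, 0.16 and 0.07 on the ethanol arrays of 6h, against −0.11, −0.18 and −0.15 at 1h. On the carbohydrate arrays it was 0.32, 0.39, 0.35 and 0.49 at 6h, against −0.01, 0.23 and 0.02 at 1h. The level was low: the mean over all 20 arrays, 0.09, stood above that of 6.63% of promoters. The 1h mean stood above 2.24% of promoters in ethanol-fed and 22.4% in carbohydrate-fed rats. At 6h these shares were 44.2% and 67.9%, so in ethanol-fed rats Col1a1 stayed below the median promoter. No 6h array overlapped a 1h array of its diet, and the difference was 0.32 ± 0.10 (adjusted p = 0.0174) in ethanol-fed and 0.31 ± 0.10 (adjusted p = 0.0193) in carbohydrate-fed rats. The call was lost without ethanol 1h replicate 2 (0.30, adjusted p = 0.0512) or ethanol 6h replicate 2 (0.28, 0.056). In carbohydrate-fed rats it was lost without 1h replicate 1 (0.26, 0.102), 1h replicate 3 (0.28, 0.0758) or 6h replicate 4 (0.27, 0.0624), and within set C (0.29, 0.0715).

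Further upstream Col1a1 differed the other way, while between −500 and 0 bp it was higher at 6h, by 0.26 in ethanol-fed and 0.22 in carbohydrate-fed rats. From −4000 to −1000 bp every 500 bp bin of Col1a1 was lower at 6h than at 1h, by 0.15 to 0.36 in ethanol-fed and by 0.18 to 0.38 in carbohydrate-fed rats. The mean of the whole tiled promoter differed by −0.10 and −0.17 (adjusted p = 0.355 and 0.119). Only 3 arrays carried an authors' peak at Col1a1. Peaks between −3855 and −3216 bp were on ethanol 0h replicate 2 and carbohydrate 1h replicate 1, which share a slide, and 1 between −1074 and −515 bp was on carbohydrate 6h replicate 2.

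Reln codes for reelin, a secreted glycoprotein best known from the brain that stellate cells also make. Its window read 0.29, 0.12, 0.46 and 0.44 on the ethanol arrays of 6h, against −0.07, 0.21 and 0.45 at 1h. The carbohydrate arrays read 0.40, 0.55, 0.52 and 0.72 at 6h, against −0.06, 0.25 and 0.06 at 1h. The times overlapped in ethanol-fed rats and not in carbohydrate-fed rats: the difference was 0.13 ± 0.14 (adjusted p = 0.508) in ethanol-fed and 0.46 ± 0.14 (adjusted p = 0.0179) in carbohydrate-fed rats. Ethanol minus carbohydrate in this change did not pass (−0.33 ± 0.20, interval −0.73 to 0.07, adjusted p = 0.451). Without 1h replicate 1, 1h replicate 3 or 6h replicate 4 the carbohydrate call was lost (0.39, 0.45 and 0.40, adjusted p = 0.0985, 0.0565 and 0.0593).

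Reln had listed peaks on 11 arrays, the most of the 6, where the median gene had 6. At 6h they lay far upstream, between −4158 and −2602 bp, on all 4 ethanol and 3 of 4 carbohydrate arrays. The only other array with a peak there was ethanol 0h replicate 3. At 1h the peaks lay nearer the start: the pair of arrays that share a slide, ethanol and carbohydrate 1h replicate 1, had peaks at −2363 to −1814 bp and at −1231 to −797 bp. The probes of that nearer site averaged −0.12 ± 0.37 at 6h and 0.44 ± 0.40 at 1h in ethanol-fed rats, and −0.47 ± 0.07 at 6h and 0.62 ± 0.35 at 1h in carbohydrate-fed rats. These sites were chosen on the peaks themselves, so their signal was not tested. Over all genes, peaks over 2 kb upstream made up a median of 40.1% of an ethanol array's peaks at 6h against 29.8% at 1h, and 37.9% of a carbohydrate array's against 35.5%.

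**Figure D3:**
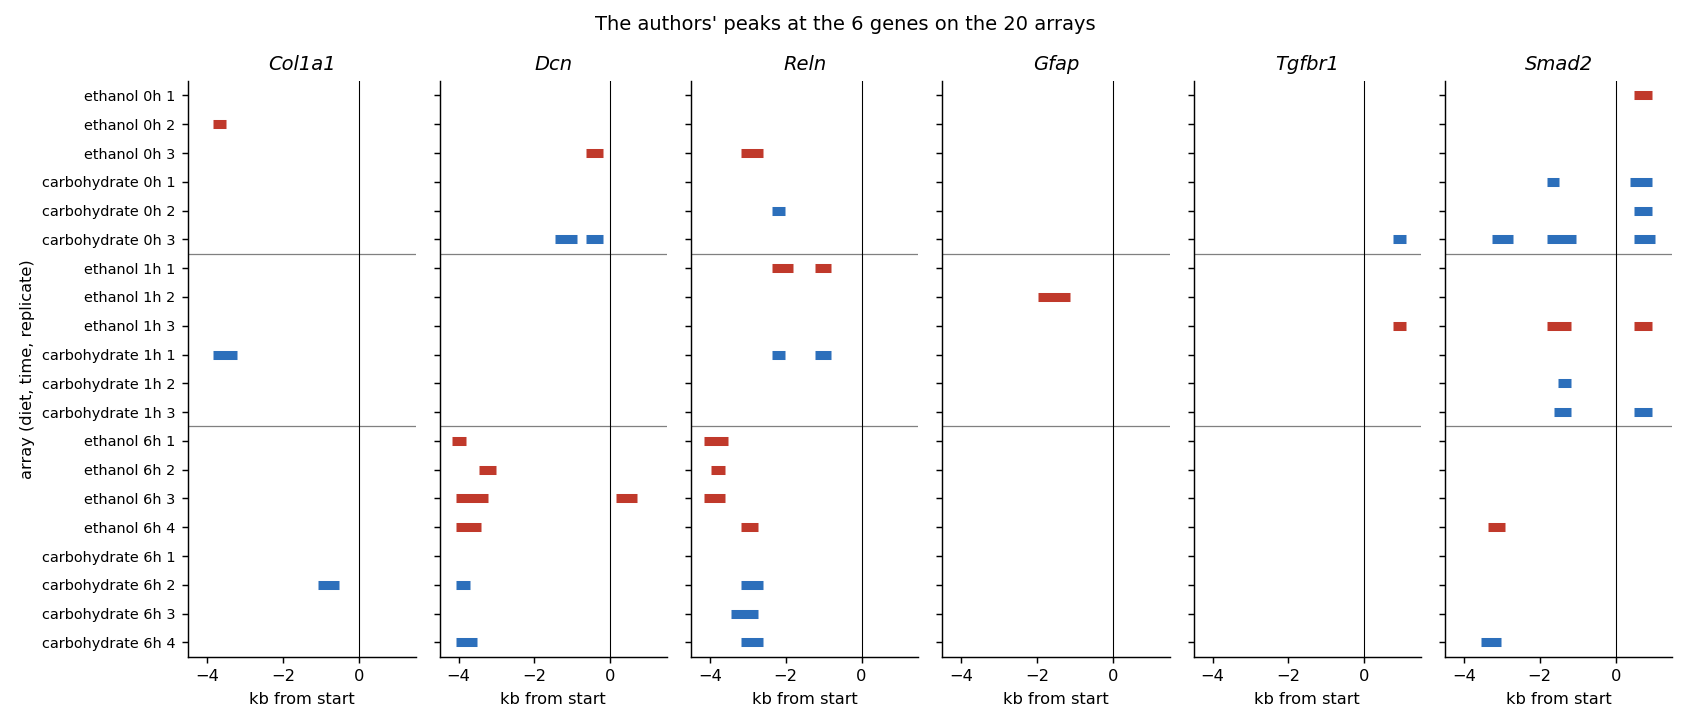
The authors' peaks at the 6 genes, each drawn as a bar from its start to its end against distance from the listed start (kb), with 1 row per array (ethanol red, carbohydrate blue) and lines between the times. At 6h the peaks of Dcn and Reln stand at the far upstream end, except 1 Dcn peak downstream of the start on ethanol 6h replicate 3, and the Smad2 peaks downstream of the start are on arrays of 0h and 1h.

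Gfap codes for an intermediate filament protein that marks astrocytes and quiescent rodent stellate cells. Its window read 0.13, 0.21, 0.03 and 0.20 at 6h in ethanol-fed rats, against 0.06, 0.31 and 0.23 at 1h, and 0.27, 0.32, 0.19 and 0.34 at 6h in carbohydrate-fed rats, against 0.43, 0.41 and 0.18 at 1h. The times overlapped in both diets and the differences were −0.06 in each (SE 0.11, adjusted p = 0.729 and 0.717). Against 0h the carbohydrate arrays stood higher at 1h, by 0.46 ± 0.11 (adjusted p = 0.0125), and at 6h, by 0.40 ± 0.11 (adjusted p = 0.00902). The 0h arrays of that diet read −0.12, −0.14 and −0.12. Gfap was the 1 member that rose in carbohydrate-fed rats at 1h, where 8.5% of all promoters rose and 2.37% fell. All 3 of those 0h arrays are in set A, and with the set as a term the difference at 1h was 0.15 (adjusted p = 0.984) and at 6h 0.08 (adjusted p = 0.88). Without carbohydrate 1h replicate 2 the call at 1h was lost (0.43, adjusted p = 0.0646), and without carbohydrate 0h replicate 2 that at 6h (0.40, adjusted p = 0.0626). The call at 1h was also lost with the mean of the whole tiled promoter (0.12, adjusted p = 0.0551) and at the listed start (0.05, adjusted p = 0.828). With the sign as deposited Gfap did not pass at 1h either (adjusted p = 0.536). A single array, ethanol 1h replicate 2, carried a listed peak at Gfap. It lay from −1977 to −1128 bp, upstream of the start, so no array had a listed peak at the measured window.

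Tgfbr1, the type I receptor kinase of TGF-beta, was the member that fell. On the ethanol arrays its signal was 0.32, −0.15, −0.19 and 0.10 at 6h, against 0.50, 0.27 and 0.97 at 1h. On the carbohydrate arrays it was −0.17, −0.21, −0.03 and −0.15 at 6h, against 0.47, 0.25 and 0.17 at 1h. The carbohydrate groups did not overlap, while ethanol 6h replicate 1 lay above the lowest 1h array of its diet. Signal fell by 0.56 ± 0.14 (adjusted p = 0.00692) in ethanol-fed and by 0.44 ± 0.14 (adjusted p = 0.0283) in carbohydrate-fed rats. Slides that held both times gave −0.65 in ethanol-fed and −0.46 in carbohydrate-fed rats.

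In ethanol-fed rats the call for Tgfbr1 was also made within set C (−0.60, adjusted p = 0.0014), but not without ethanol 1h replicate 3 (−0.37, adjusted p = 0.0826). In carbohydrate-fed rats it was lost within set C (−0.34, adjusted p = 0.0906) and without 1h replicate 1 (−0.35, 0.143), 1h replicate 2 (−0.46, 0.05), or 6h replicate 1, 2 or 4 (adjusted p = 0.057, 0.0664 and 0.0596). Listed peaks lay at the window, from 751 to 1108 bp, on carbohydrate 0h replicate 3 and ethanol 1h replicate 3. The window is at the edge of the tiled stretch, with 4 probes. The mean of the whole tiled promoter differed by −0.09 and −0.14 (adjusted p = 0.229 and 0.0815).

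Smad2 codes for the transcription factor that TGFBR1 phosphorylates. At 0h it read 0.52, −0.21 and 0.20 on the ethanol arrays, against 0.79, 0.75 and 0.83 on the carbohydrate arrays. The ethanol arrays all lay below the carbohydrate arrays, by 0.62 ± 0.16 on average (adjusted p = 0.612), which did not pass the test over all promoters. Of the 18 differences between the diets at 0h, 1h or 6h this was the largest. The low ethanol array, replicate 2, is the one in set B. At 6h Smad2 read 0.06, 0.33, 0.24 and 0.07 in ethanol-fed and 0.32, 0.31, 0.36 and 0.33 in carbohydrate-fed rats, and at 1h it read 0.13, 0.37 and 0.77 in ethanol-fed and 0.14, 0.42 and 0.39 in carbohydrate-fed rats.

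Between 6h and 1h Smad2 differed by −0.25 ± 0.15 (adjusted p = 0.227) in ethanol-fed and 0.01 ± 0.15 (adjusted p = 0.962) in carbohydrate-fed rats. Within set C the ethanol difference passed, at −0.40 ± 0.13 (adjusted p = 0.0163), and on the slide with both times it was −0.71. The authors' peaks downstream of the start, between 373 and 1033 bp, were on 1 of 3 ethanol and all 3 carbohydrate arrays of 0h and on replicate 3 of both diets at 1h, which share a slide. No 6h array had one. The strongest of these peaks had a score of 0.713. Peaks at −1814 to −1052 bp were on 5 arrays of 0h or 1h. Those at −3559 to −2710 bp were on replicate 4 of both diets at 6h and on carbohydrate 0h replicate 3.

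**Figure D4:**
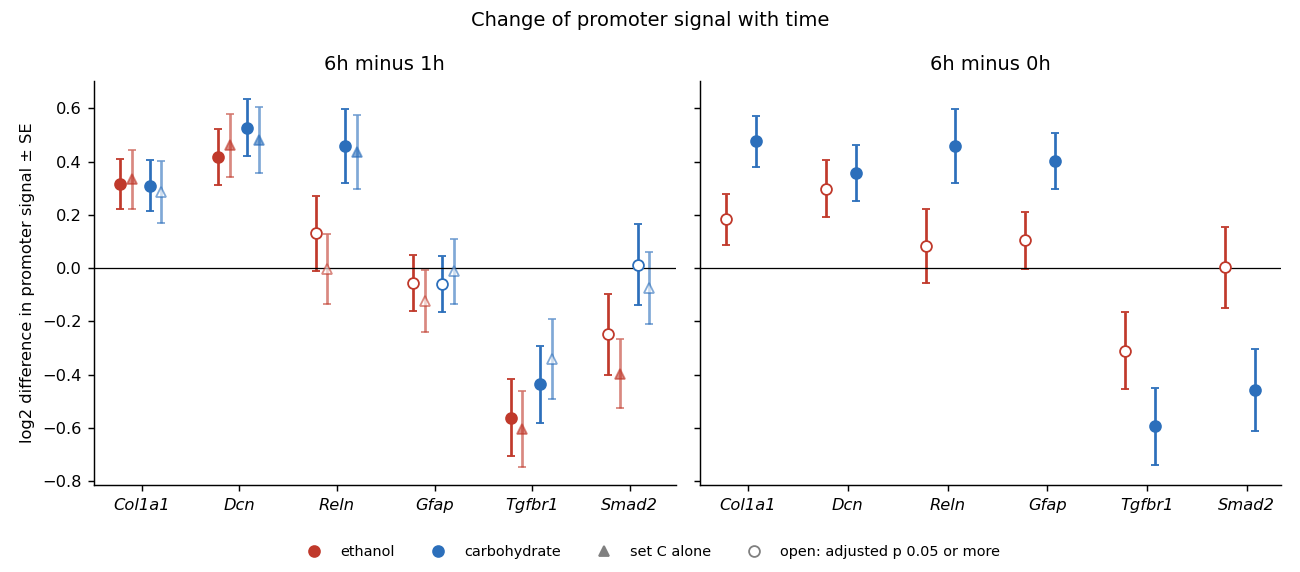
Difference in promoter signal (log2) ± SE between 6h and 1h (left) and 6h and 0h (right) for each gene, in ethanol-fed and carbohydrate-fed rats, over all arrays (circles) and within set C alone (triangles, left panel). Filled symbols had an adjusted p under 0.05. Dcn and Col1a1 lie above 0 and Tgfbr1 below 0 at 6h against 1h in both diets.

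Against 0h, none of the 6 members passed at 6h in ethanol-fed rats and all 6 did in carbohydrate-fed rats. No set held both 0h and 6h arrays, in either diet. In ethanol-fed rats 0.997% of promoters passed, and the members' differences lay between −0.31 (Tgfbr1) and 0.30 (Dcn), with adjusted p from 0.117 up. In carbohydrate-fed rats 18.7% of all promoters rose and 1.99% fell. Col1a1 (0.48 ± 0.10), Reln (0.46 ± 0.14), Gfap (0.40 ± 0.11) and Dcn (0.36 ± 0.11) rose, and signal fell by 0.59 ± 0.14 at Tgfbr1 and by 0.46 ± 0.15 at Smad2. The adjusted p ran from 0.00186 for Col1a1 to 0.0325 for Smad2. The difference between the diets in the change from 0h to 6h passed at no member, the largest being 0.46 ± 0.22 at Smad2 (adjusted p = 0.357).

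None of those 6 calls held with the set as a term, when the differences were 0.46 (Col1a1), 0.61 (Reln), 0.08 (Gfap), 0.52 (Dcn), −0.67 (Tgfbr1) and −0.24 (Smad2), with adjusted p from 0.24 to 0.88. Those values rest on 1 array, ethanol 0h replicate 2, as the only link from 0h to another set. Leaving out carbohydrate 0h replicate 2 left 2 calls, and leaving out replicate 1 left 3. Smad2 was lost with any 1 of the 7 arrays left out. In the ethanol-fed animal that gave both a 0h and a 6h array, 6h minus 0h was 0.11 at Col1a1, 0.15 at Dcn, −0.20 at Reln, 0.14 at Gfap, 0.18 at Tgfbr1 and −0.14 at Smad2. In the carbohydrate-fed animal it was 0.49, 0.24, 0.32, 0.44, −0.90 and −0.52 for the same genes. Each animal's 2 arrays were from different sets.

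At 1h against 0h in ethanol-fed rats no member passed, and 0.241% of all promoters did. One ethanol-fed animal had arrays at both times, on the same slide. There 1h minus 0h was −0.09 at Col1a1, 0.07 at Dcn, −0.04 at Reln, −0.17 at Gfap, 0.07 at Tgfbr1 and 0.34 at Smad2. In carbohydrate-fed rats Smad2 was lower at 1h by 0.47 ± 0.16 but did not pass (adjusted p = 0.0584). It passed under 6 of the alternatives, with adjusted p from 0.00902 (arrays scaled to the same spread) to 0.0496 (no trend in the spread), and not with the set as a term (−0.14, adjusted p = 0.991). In the carbohydrate-fed animal with arrays at both times Smad2 read 0.14 at 1h and 0.75 at 0h, on slides of different sets.

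Between the diets no member passed at 0h, 1h or 6h, nor did the diets' difference in the change between any pair of times. The share of all promoters that passed was 0.0% in each of these 6 comparisons, so the calls separate no promoter. At an unadjusted p under 0.05 the members numbered 1 at each of the 3 times. These were Smad2 at 0h, and Col1a1 at 1h (−0.23 ± 0.10) and at 6h (−0.22 ± 0.09, interval −0.40 to −0.04). Over all promoters the median of ethanol minus carbohydrate was 0.06 at 0h, 0.03 at 1h and −0.10 at 6h. At 1h each ethanol array shared a slide with the carbohydrate array of the same number. Within these slides ethanol minus carbohydrate was −0.098, −0.42 and −0.17 at Col1a1, lower in ethanol-fed rats on all 3, and 0.0292, 0.0258 and 0.80 at Tgfbr1, higher on all 3. With the slide as a term neither passed (adjusted p = 0.291 and 0.29). Unadjusted, 1114, 1191 and 1590 promoters passed at 0h, 1h and 6h. At 6h the intervals of the other members reached from −0.48 (Reln) to 0.43 (Tgfbr1).

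The share of promoters that changed with time varied with base composition and with the window's place. Of the promoters with 1 start, 9485 could be matched by name to a RefSeq promoter, and these were put in 3 classes of similar size by its CG pairs: at most 7, up to 22, and more. From 1h to 6h in ethanol-fed rats 19.6% of the class with fewest CG pairs rose and 5.82% fell, and 1.37% of the class with most rose and 25.9% fell. In carbohydrate-fed rats 33.5% of the class with fewest rose and 3.64% fell, and 8.09% of the class with most rose and 8.9% fell. Reln, Tgfbr1 and Smad2 belong to the class with most CG pairs, and Gfap to that with fewest. By place, windows over 2 kb upstream, as for Dcn and Reln, rose in 5.86% and fell in 7.87% of promoters in ethanol-fed rats, and rose in 16.4% and fell in 4.69% in carbohydrate-fed rats. Those within 2 kb upstream, as for Col1a1, rose in 4.38% and fell in 19.7% in ethanol-fed rats, and rose in 12.3% and fell in 7.89% in carbohydrate-fed rats. Those downstream, as for Gfap, Tgfbr1 and Smad2, rose in 15.3% and fell in 19.7% in ethanol-fed rats, and rose in 27.2% and fell in 8.06% in carbohydrate-fed rats. The part of base composition or place in the members' changes was not tested.

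The 20 arrays gave Dcn and Col1a1 similar patterns (r = 0.76) and Col1a1 and Tgfbr1 opposite ones (r = −0.81), while Smad2 followed Tgfbr1 weakly (r = 0.33). These correlations share arrays, sets and times. The promoters most like Dcn were those of the olfactory receptors Or7g33c (r = 0.96), Or5b12b (0.94) and Olr936 (0.94), and those most like Col1a1 were Or11g26b (0.91), Or8b12 (0.89) and RGD1305537 (0.89). Reln was most like Ccdc172 (0.93), Prim2 (0.92), a subunit of DNA primase, and Cldn16 (0.92). Gfap was most like the serotonin receptor Htr5a (0.92), Or5c1 (0.91) and Paqr5 (0.89). Tgfbr1 was most like Aff4 (0.89), Papola (0.87), a poly(A) polymerase, and Czib (0.86). Smad2 was most like Sos1 (0.88), Map3k3 (0.88) and Pds5a (0.86).

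Among other genes of the matrix and of TGF-beta signalling, counts and medians from 1h to 6h were as follows. Of 7 tiled collagens of 16 listed, 2 rose in ethanol-fed rats (median difference −0.25), and 1 rose and 2 fell in carbohydrate-fed rats (−0.10). Col3a1, the collagen laid down beside type I, rose by 0.30 ± 0.10 and 0.32 ± 0.10. Col16a1 had the largest fall in carbohydrate-fed rats, −0.93 ± 0.21. Of 16 tiled proteoglycans and glycoproteins of 26, elastin (Eln) fell in ethanol-fed rats (−0.29 ± 0.10, median −0.01), and fibronectin (Fn1) rose in carbohydrate-fed rats (0.56 ± 0.14, median −0.03). Of 19 tiled genes of matrix turnover and crosslinking of 20, 3 rose and 1 fell in ethanol-fed rats (−0.01), and 3 rose in carbohydrate-fed rats (0.15). Adamts1, a protease of proteoglycans, rose by 0.59 ± 0.15 in carbohydrate-fed rats.

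Of 15 tiled ligands and binding proteins of TGF-beta of 20 listed, 3 fell in ethanol-fed rats (median −0.22), led by Bmp6, which controls hepcidin and iron (−0.68 ± 0.18), and none passed in carbohydrate-fed rats (−0.02). Of 20 other tiled receptors and Smads of 25, 1 rose and 2 fell in ethanol-fed rats (−0.22), and 2 rose and 1 fell in carbohydrate-fed rats (−0.07). The activin receptor Acvr1b fell by 0.67 ± 0.13 in ethanol-fed rats, and Tgfbr2, which pairs with TGFBR1, fell by 0.49 ± 0.15 in carbohydrate-fed rats. Smad5, a Smad of the BMP branch, rose by 0.39 ± 0.14 and 0.38 ± 0.14. Of 11 tiled TGF-beta target genes of 14, 4 fell in ethanol-fed rats (−0.09), Id2 (−0.95 ± 0.14) most, and none passed in carbohydrate-fed rats (0.08).

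Of 14 tiled stellate cell markers of 15, 3 fell in ethanol-fed rats (median −0.17), and 1 rose and 2 fell in carbohydrate-fed rats (−0.05). Cygb, a stellate cell globin, fell by 0.50 ± 0.15 and 0.65 ± 0.15, and Pdgfrb by 0.55 ± 0.13 and 0.43 ± 0.13. Lhx2 fell by 0.56 ± 0.18 in ethanol-fed rats and desmin (Des) rose by 0.34 ± 0.11 in carbohydrate-fed rats. Markers of other cell types moved as well. Of 7 hepatocyte markers 3 fell in ethanol-fed rats (−0.30), and 1 rose and 2 fell in carbohydrate-fed rats (−0.21). Of 5 Kupffer cell markers none passed in ethanol-fed rats (−0.0008) and 1 rose in carbohydrate-fed rats (0.20). Of 6 endothelial markers none passed in ethanol-fed rats (−0.06), and 1 rose and 1 fell in carbohydrate-fed rats (0.01). Of 5 cholangiocyte markers 1 rose and 1 fell in ethanol-fed rats (0.0032), and 2 rose in carbohydrate-fed rats (0.08). These shares stand beside the 7.83% and 16.2%, and the 17.0% and 6.92%, given above for all promoters.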

How the data were processed

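NF-kB p65 ChIP-chip of 20 rat liver samples, from 16 animals by the numbers taken as animal numbers, was read from a value table and a peak list per array. The deposited values are log2 ratios of the 2 channels per probe (713735 probes), log base not stated and taken as 2. The authors' peak lists give each peak a score and an FDR, the highest of which was 0.2, per the file headers. How these were made is not given in the sources used here.

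Here the deposited log2 values were multiplied by −1 and centred on each array's median, since 99.9% to 100% of an array's peaks lay at values below 0. Probes were joined into tiled promoters, split at gaps over 1000 bp. The 500 bp window with the highest mean over all arrays, of at least 4 probes, gave 14540 promoters. The same arrays were then used in the tests, which do not allow for this choice of window. limma 3.58.1 (R 4.3.3) was fitted to all promoters and 6 groups with a trend in the spread. Tests were two-sided, p-values were adjusted (Benjamini-Hochberg) over all promoters, and a promoter passed at an adjusted p under 0.05. Intervals and SEs are from limma. Other work used Python 3.11.15, numpy 2.4.6, pandas 2.3.3, scipy 1.17.1 and matplotlib 3.10.9. Array numbers limit the precision. In simulated data for 1h against 0h in carbohydrate-fed rats, over 14540 promoters, 15% of changes of 0.4 and 86% of 0.8 were recovered with 6 false calls. The simulated arrays had independent noise and no sets or slides, unlike the real arrays, so these rates do not cover differences between sets.

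The members and gene lists were chosen with earlier results of these data known. From the other lists the rule allowed, per list and comparison, the up to 3 promoters with the largest rise and the up to 3 with the largest fall among those that passed, and the text gives part of these. For likeness it took the 3 named promoters with the highest r per member. Gene names were matched through RefSeq accessions, 13678 of 14678. The deviations of same-numbered arrays correlated at r −0.22 to 0.50. Every pair exceeded 0.1 only for ethanol against carbohydrate at 1h (0.50, 0.19 and 0.28), where same-numbered arrays share a slide, and at 0h r was 0.0412, 0.36 and 0.41. The alternatives were other windows, sign, scaling, batch terms, blocks and single arrays left out.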

Additional observations from a re-analysis of the deposited data

How the results depend on the processing

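Of 1536 recomputed member differences, 1436 kept their side of the threshold, and their direction where they passed. Of the others 74 no longer passed, 12 newly passed and 14 turned direction, and 151 that passed in neither changed sign. Signs were compared as they stood. Under the deposited direction, the same direction of p65 change therefore counted as a turned or changed sign. Members that passed numbered 1 at 1h against 0h, 6 at 6h against 0h and 4 at 6h against 1h in carbohydrate-fed rats, and 3 at 6h against 1h in ethanol-fed rats. For 1h against 0h in carbohydrate-fed rats 2 passed with scaled arrays, quantile normalization, array weights, animal as a random block or no trend, Smad2 among them, and 0 with the window at the listed start or the set as a term. There the 1 member that passed with the mean of the whole tiled promoter was Smad2, and with the deposited direction Tgfbr1, not Gfap. For 6h against 0h in carbohydrate-fed rats 1 passed with the region mean, meaning all tiled probes, 0 at the start, 1 with the deposited direction and 0 with the set as a term. For 6h against 1h in ethanol-fed rats 1, 1 and 0 passed with the region mean, at the start and with the deposited direction, and 1 with the slide as a term. In carbohydrate-fed rats 0 passed under each of these 4, and 2 within set C. Array weights gave 1 at 6h against 0h in ethanol-fed rats, 2 between diets at 6h and 1 in the diet difference of the change between 0h and 6h, against 0 otherwise. With single arrays left out the counts ran from 0 to 1 (1h against 0h, carbohydrate), 2 to 5 (6h against 0h, carbohydrate), 1 to 4 (6h against 1h, carbohydrate) and 2 to 3 (6h against 1h, ethanol). Of the 120 pairs of a member and an array, 34 had a listed peak. With only peaks at an FDR of at most 0.05 these were 10, and with only peaks within 1 kb of the start 12.

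The deposited direction picks other windows, those with the lowest p65 signal, and its values are not turned. An opposite sign there is the same direction of p65 change, and an equal sign the opposite direction. There Tgfbr1 read 0.57 at 1h against 0h in carbohydrate-fed rats, and at 6h against 0h Gfap read −0.0213, Tgfbr1 0.48 and Smad2 0.35. At 6h against 1h in ethanol-fed rats Dcn read −0.28, Col3a1 −0.29, Eln 0.0588, Lox −0.0383 (promoter shared with Zfp474), Mmp14 0.10 (shared with Mrpl52), Smad5 −0.28, Acvr1b 0.23 and Cygb 0.22, and in carbohydrate-fed rats Col3a1 −0.28, Col16a1 0.13, Fn1 −0.21, Adamts1 −0.23, Smad5 −0.20, Tgfbr2 0.0536 and Cygb 0.47. With the region mean, 6h against 0h in carbohydrate-fed rats gave Col1a1 −0.0185, Dcn −0.06 and Reln −0.0686, and 6h against 1h gave Col1a1 −0.10 in ethanol-fed rats and, in carbohydrate-fed rats, Col1a1 −0.17, Reln −0.0678, Fn1 −0.0069 and Des −0.0417. At the listed start, 6h against 0h in carbohydrate-fed rats gave Dcn −0.0718 and Reln −0.13, and 6h against 1h gave Lhx2 0.0407 in ethanol-fed rats and, in carbohydrate-fed rats, Reln −0.0098, Fn1 −0.066, Smad9 −0.43 and Smad5 −0.14. Apart from the turn, the cause was not tested. With the replicate block, 5 members passed at 6h against 0h in carbohydrate-fed rats (Smad2 did not, at −0.44, adjusted p = 0.0517), and it changed no other count of members.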
